A study of Mus musculus with 31 samples.

Results

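The subject here is the set of genes that encode oxidative phosphorylation, the respiratory chain and ATP synthase of mitochondria, in mouse T helper 17 (Th17) cells. Members were taken by symbol: nuclear genes beginning with Nduf, Uqcr, Cox4 to Cox8, Atp5, or Sdh with a, b, c or d, and the genes mt-Nd, mt-Co, mt-Cytb and mt-Atp of the mitochondrial genome, without symbols carrying -ps. Of 31053 gene symbols in each of 3 count tables, 110 matched. A mean of at least 5 counts in a table was required, which left 101 members in the Cyp11a1 table (88 nuclear, 13 mitochondrial), 102 in the GR table (89 and 13) and 103 in the in vitro table (90 and 13). Every kept member also passed the low-count filter of the tests. The rule used names and mean counts over all libraries, not differences between groups. It was set with earlier results of these data known.

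The libraries were made from about 2000 sorted cells each and come from 3 experiments on C57/B6 mice. For the 2 genotype experiments, donors were wild type (WT) or carried a conditional knockout (cKO) of Cyp11a1 or of GR; their naive T cells with the transgenic 2D2 receptor became homeostatic Th17 cells in culture and were given to Rag1 KO recipients, where they brought on experimental autoimmune encephalomyelitis; 2D2+ cells were then sorted from brain and spinal cord at peak disease. There were 4 Cyp11a1 WT and 6 Cyp11a1 cKO libraries, and 5 GR WT and 4 GR cKO libraries. GR is the glucocorticoid receptor, encoded by Nr3c1. The third experiment stayed in culture: WT T cells of spleen and draining lymph node, made into inflammatory Th17 cells, spent 2 days untreated (Ctrl), in dexamethasone (Dex, a glucocorticoid drug), in TGF-β1 (a cytokine), or in both, with 3 libraries each. Rag1 KO hosts lack T and B cells but keep their own myeloid cells. The Cre driver, the ages of the animals and the doses are not given in the sources used here, and the labels do not say whether libraries came from separate animals or cultures, so p-values measure the spread between libraries, which may in part be technical.

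Oxidative phosphorylation passes electrons from NADH through complex I (Nduf and mt-Nd genes) and from succinate through complex II (Sdh genes) to complex III (Uqcr genes and mt-Cytb) and complex IV (most Cox genes, Ndufa4 and mt-Co), and the proton gradient built on the way drives ATP synthase, complex V (Atp5 and mt-Atp). Complex II is encoded wholly in the nucleus, while the other complexes join nuclear and mitochondrial subunits and so need transcripts from both genomes. Activated T cells draw on glycolysis as well as respiration, and the balance between them is a known feature of Th17 differentiation. Assembly factors (Ndufaf and Sdhaf genes) help build complexes I and II but are not part of the finished enzyme.

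Total counts per library ranged from 4322688 to 5118543 for Cyp11a1, from 3552871 to 5623305 for GR and from 2769203 to 4291149 for the cultures. A group of 11 to 12 predicted genes that vary together, such as Gm10800, took 9.09% to 54.6% of a library's counts, and TMM scaling was used throughout. T cell markers were present in every group (12 of 12 detected, summed at 15977 to 39654 CPM in the sorted central nervous system cells and 3371 to 3670 CPM in culture). Cyp11a1 had 0 counts in all 4 Cyp11a1 WT libraries, 4 counts in Cyp11a1 cKO replicate 2 and 0 in the other cKO libraries, so its transcript cannot check those labels. Nr3c1 stood at 8.43 ± 1.42 CPM (SD, n = 4) in GR cKO and 14.9 ± 2.38 CPM (n = 5) in GR WT. The log2 difference was -0.83 ± 0.18 (SE), with an adjusted p of 0.580 in edgeR's quasi-likelihood test. The smallest adjusted p of any gene in that comparison was 0.455. Every GR cKO library lay below every GR WT library for Nr3c1, as was so for 0.859% of all genes tested. CPM is the usual depth-scaled count (cpm in edgeR), here on TMM-scaled library sizes.

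In control cultures the nuclear members summed to 18363 to 19125 CPM and the 13 mitochondrial genes to 10277 to 11390 CPM per library. Levels of different genes are comparable only per length, so counts were divided by the median length of a gene's coding transcripts. On that scale the most abundant nuclear members in control cultures were Cox8a at 1243 CPM per kb, a structural subunit of complex IV, then Uqcrh of complex III at 1059 and Cox6b1 of complex IV at 1024. The lowest were the assembly factors Ndufaf4 at 1.13, Sdhaf1 at 3.56 and Ndufaf7 at 3.89 CPM per kb. The mitochondrial genes ran from mt-Nd2 at 117 and mt-Nd6 at 122 to mt-Atp6 at 2371 and mt-Atp8 at 3697 CPM per kb.

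The levels of some neighbouring mitochondrial genes are uncertain, because their reading frames overlap and a read in the overlap fits both. The shared bases, from chrM:7927-7969 for mt-Atp8 and mt-Atp6 and chrM:10167-10173 for mt-Nd4l and mt-Nd4 (GRCm38, plus strand, 43 and 7 bases), are shown with the start codon of the second gene and the stop codon of the first in capitals.
mt-Atp8 and mt-Atp6: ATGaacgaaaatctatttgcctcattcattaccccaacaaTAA
mt-Nd4l and mt-Nd4: ATGcTAA
mt-Nd6 lies on the opposite strand and the library method keeps no strand, so reads from transcripts across it could also be counted for it.

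Where a subunit exists in several isoforms, their levels per length differed. In control cultures Cox4i1 stood at 929 CPM per kb and Cox4i2, an isoform best known from lung, at 5.52. Cox6b1 stood at 1024 against 35.2 for Cox6b2, an isoform best known from testis, and Cox7a2 at 664 against 222 for Cox7a2l and 103 for Cox7a1, the heart and muscle form. Among the 3 genes for the c subunit of ATP synthase the order was Atp5g2 at 677, Atp5g3 at 287 and Atp5g1 at 83.4 CPM per kb. The last place of Atp5g1 rests on its annotated length of 2675.5 bases, against 586 for Atp5g2 and 718.5 for Atp5g3. Before division its Ctrl libraries held 663, 771 and 932 counts, against 635, 765 and 771 for Atp5g3. Cox8b and Cox7b2 had 0 counts in all 31 libraries. Cox8c had at most 8 counts in any library and Ndufa4l2 at most 4. Cox4i2 and Cox6b2 reached the mean of 5 counts only in the in vitro table, and Cox6a2 only in the GR table. Sdhaf3 and the second Atp5o entry stayed under that mean in all 3 tables.

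Members varied among replicates by different amounts in the 3 tables. The median coefficient of variation of nuclear members was 7.38% in Ctrl, 8.25% in Dex, 8.52% in TGF-β1 and 7.0% in the combination, against 12.1% in Cyp11a1 WT, 8.61% in Cyp11a1 cKO, 19.8% in GR WT and 15% in GR cKO. For the mitochondrial genes it was 5.11% in Ctrl and 16.7% in the combination, where replicate 1 had the highest and replicate 3 the lowest mitochondrial sum.

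**Figure D1:**
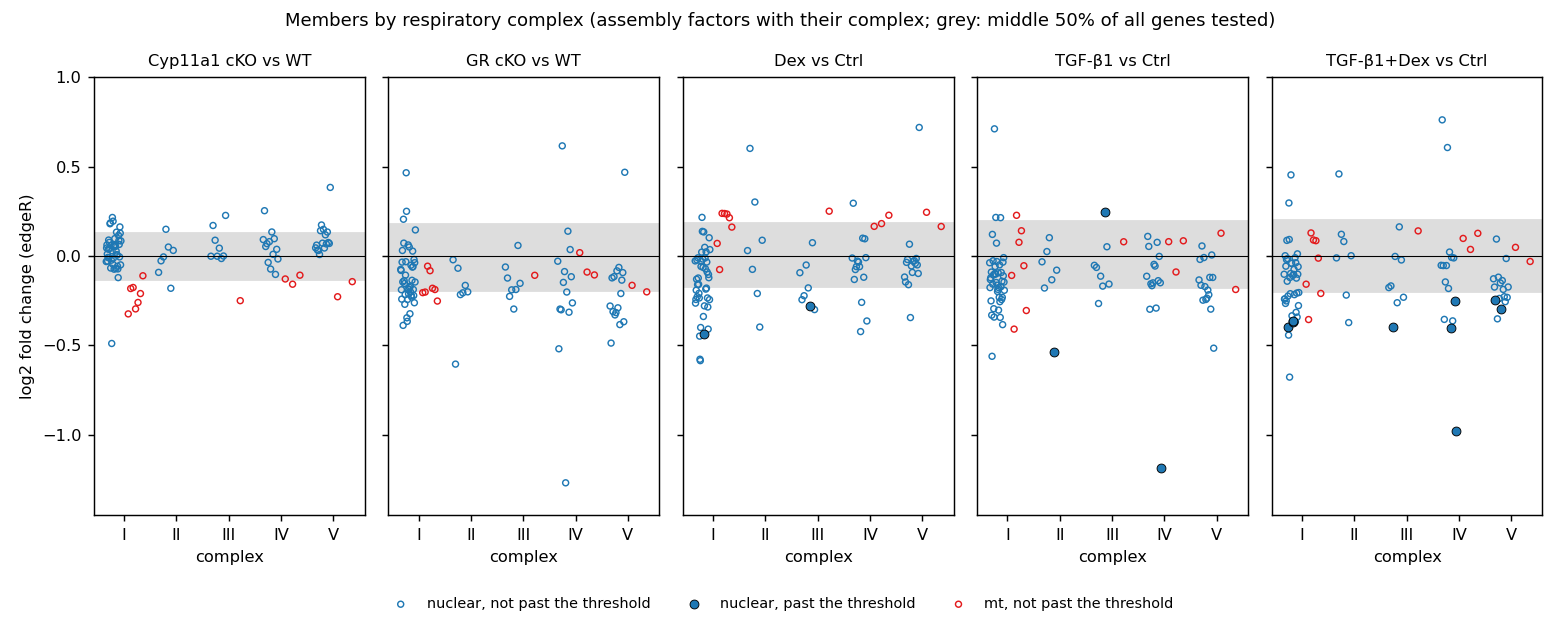
Each point is the log2 fold change of 1 member from edgeR (y axis) in 5 comparisons, placed by respiratory complex (x axis), with nuclear members in blue and mitochondrial genome members in red; filled points passed an adjusted p of 0.05, and the grey band covers the middle 50% of all genes tested. Nuclear members of the in vitro comparisons lie mostly below 0, with Ndufa4 of complex IV the lowest in both comparisons with TGF-β1, and all 13 mitochondrial genes lie below 0 in the Cyp11a1 comparison.

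With TGF-β1, 3 of 90 nuclear members were called against Ctrl, about the same share as the 3.29% of all genes tested. Ndufa4 had the largest log2 fold change of all members in either direction. Ndufa4 (ENSMUSG00000029632, chr6:11900292-11907497, minus strand, GRCm38) encodes a small subunit of complex IV that was once assigned to complex I. Its levels were 297, 350.0 and 286 CPM in the Ctrl libraries, 239, 217 and 270.2 in Dex, 127, 142 and 141 in TGF-β1 and 172, 151 and 151 in the combination. All 6 libraries with TGF-β1 lay below all 6 without it, and the Dex libraries lay between Ctrl and the TGF-β1 groups without overlap. With TGF-β1 Ndufa4 fell by 1.19 ± 0.10 on the log2 scale (SE, a ratio of 0.439, adjusted p = 1.81e-05, edgeR). It also fell in the combination against Ctrl, by 0.98 ± 0.10 (adjusted p = 4.73e-05), and in the combination against Dex, by 0.61 ± 0.10 (adjusted p = 0.00396). These 3 calls held under every alternative run. With Dex alone the log2 difference was -0.36 ± 0.10 and the adjusted p 0.0823.

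**Figure D2:**
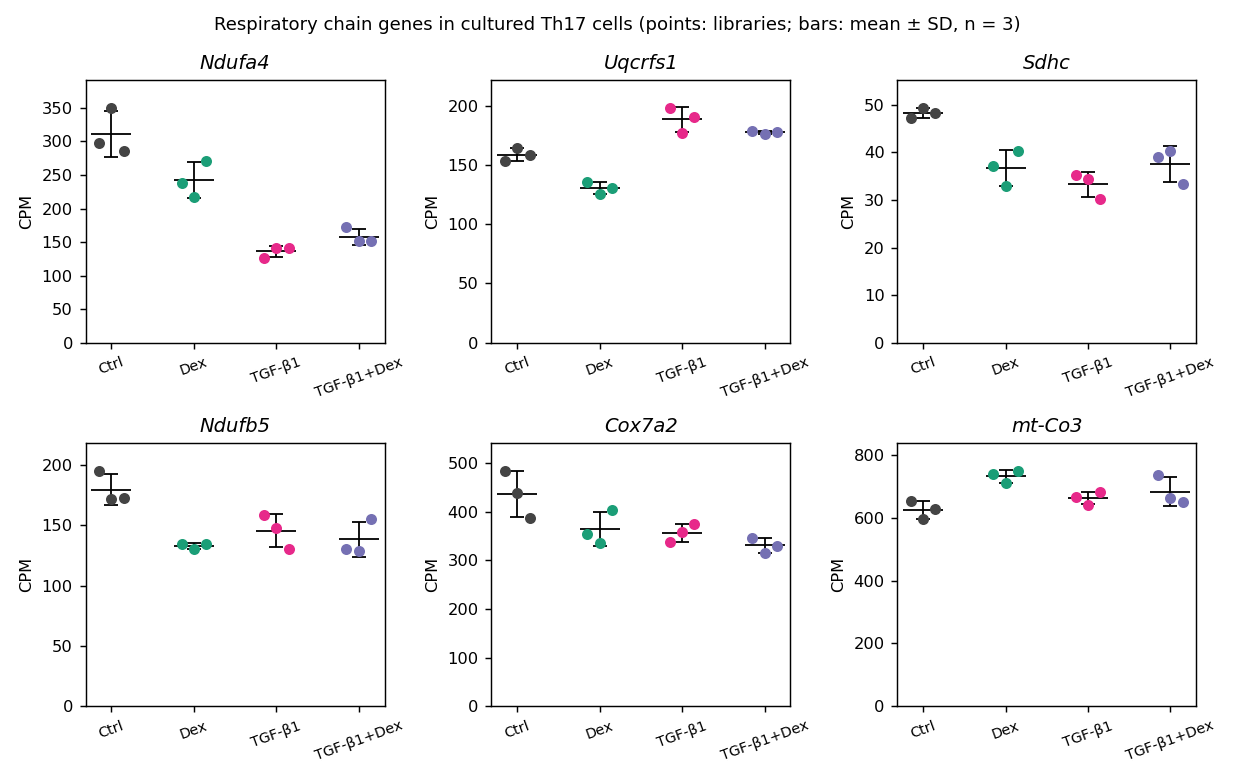
CPM (y axis, from 0) of 6 members in the 12 cultured Th17 libraries, by treatment (x axis); points are libraries and bars the mean ± SD of 3. Ndufa4 separates the groups with TGF-β1 (127 to 172 CPM) from those without (217 to 350.0 CPM), while Uqcrfs1 is lowest in Dex and highest with TGF-β1.

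Uqcrfs1 (ENSMUSG00000038462, chr13:30540308-30545362, minus strand), the Rieske iron-sulphur protein that passes electrons within complex III, was called in opposite directions under the single agents. The Ctrl libraries held 154, 164 and 159 CPM, the Dex libraries 136, 126 and 131, the TGF-β1 libraries 198, 178 and 190.4, and the combination 179, 177 and 178. The 4 groups did not overlap, except that TGF-β1 alone and the combination did. Against Ctrl it rose with TGF-β1 by 0.25 ± 0.06 (adjusted p = 0.0433) and fell by 0.28 ± 0.06 with Dex (adjusted p = 0.0386). The increase lost its call in 15 of 23 alternatives (adjusted p from 0.0226 to 0.4999), among them 9 of the 12 fits that left out 1 library, and the decrease in 12 of 23 (adjusted p from 0.0285 to 0.406). The rise in the combination against Dex was larger, 0.44 ± 0.06 (adjusted p = 0.00149), and lost its call in 1 alternative, scaling by total counts only (adjusted p = 0.105). The difference between the combination and Ctrl was 0.16 ± 0.06 (adjusted p = 0.152).

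The bases before the RefSeq starts of these 2 genes are shown because the genes parted under TGF-β1. The gene spans given above start further upstream, so the last bases of each window lie inside them. The match marked in Uqcrfs1 is among those bases. The windows are the 250 bases before the RefSeq start, 5′ to 3′ on the minus strand, at chr6:11907451-11907700 for Ndufa4 and chr13:30545317-30545566 for Uqcrfs1 (GRCm38.p6), with capitals marking a motif match.
Ndufa4: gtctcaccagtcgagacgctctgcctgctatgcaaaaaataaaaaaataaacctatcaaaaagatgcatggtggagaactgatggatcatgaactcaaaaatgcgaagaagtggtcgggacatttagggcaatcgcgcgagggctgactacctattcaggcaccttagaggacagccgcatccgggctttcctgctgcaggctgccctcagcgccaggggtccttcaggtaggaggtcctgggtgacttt
Uqcrfs1: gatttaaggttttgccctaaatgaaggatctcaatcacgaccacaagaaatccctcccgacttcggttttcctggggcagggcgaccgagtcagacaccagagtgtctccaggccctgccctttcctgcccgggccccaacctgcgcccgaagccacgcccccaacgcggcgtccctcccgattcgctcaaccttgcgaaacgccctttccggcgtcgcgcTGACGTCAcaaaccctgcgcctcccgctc
Of 7 motifs searched on both strands, TGACGTCA, bound by CREB, matched Uqcrfs1, and none matched Ndufa4. Over the 80 promoter windows of 300 bases (250 before the start and 50 after) that RefSeq held for 75 of 91 nuclear members, TGACGTCA was present in 5%, against 1.79% of all 32851 windows. GCATGCGC, the core of the NRF1 palindrome, was in 15% against 2.71%. CCGGAAG, an ETS and GABPA site, was in 25% against 8.86%. AAGATGGC, bound by YY1, was in 12.5% against 2.75%. GGGCGG, the GC box, was in 45% against 35.7%. TCAAGGTCA, bound by ERR receptors, was in 2.5% against 0.423%. CACGTG, the E-box, was in 7.5% against 7.15%. No 2 of these motifs were counted as exclusive of each other, and a match is a description of the letters only.

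Among all nuclear members, 1 of 90 was higher and 2 were lower with TGF-β1, where 1.93% of all genes tested were called higher and 1.36% lower. The other lower member was Sdhc (ENSMUSG00000058076, chr1:171127165-171150603, minus strand), which anchors complex II in the inner membrane. Its levels were 47.2, 49.3 and 48.2 CPM in Ctrl, 35.1, 34.4 and 30.3 in TGF-β1, 37.0, 32.8 and 40.3 in Dex and 39.1, 40.2 and 33.3 in the combination. All 9 treated libraries lay below the 3 Ctrl libraries, and the treated groups overlapped one another. Sdhc fell by 0.54 ± 0.11 with TGF-β1 (adjusted p = 0.0170), and the call was lost in 4 of 12 fits without 1 library, among them each of the 3 Ctrl libraries (highest adjusted p 0.0820). With Dex its log2 difference was -0.40 ± 0.11 (adjusted p = 0.100), and in the combination -0.37 ± 0.11 (adjusted p = 0.0655).

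Beyond the called genes, 76 of 90 nuclear members had a negative log2 fold change with TGF-β1, with a median of -0.14, where the median of all 10332 genes tested was -0.00028. In 23 of 90 the 3 TGF-β1 libraries lay below the 3 Ctrl libraries, against 10.4% of all genes tested. By complex the medians were -0.16 for the 36 complex I subunits, -0.11 for the 4 of complex II, -0.088 for the 8 of complex III, -0.14 for the 15 of complex IV and -0.17 for the 16 of complex V. The 13 mitochondrial genes differed in sign, 7 positive and 6 negative, with a median of 0.077 (-0.0069 to 0.11 over the fits without 1 library). None of the 13 passed in edgeR, DESeq2 or limma voom, where DESeq2 called 2.92% and limma voom 3.21% of all genes tested. In edgeR 0 had an unadjusted p under 0.05, against 15% of all genes tested.

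With Dex alone, 2 nuclear members were lower and 0 higher, where 0.91% of all genes tested were called lower and 0.919% higher. They were Uqcrfs1 and Ndufb5 (ENSMUSG00000027673, chr3:32736990-32751566, plus strand), an accessory subunit of complex I. Ndufb5 stood at 195, 171 and 173 CPM in Ctrl, 134, 129.98 and 135 in Dex, 159, 148 and 131 in TGF-β1 and 130.3, 129 and 155 in the combination. It fell by 0.43 ± 0.09 with Dex (adjusted p = 0.0317), and its Dex libraries were all below Ctrl. Ndufb5 lost its call without any 1 of the 6 Ctrl and Dex libraries (adjusted p up to 0.122) and with scaling by total counts only, and the count of lower nuclear members, which was 0 without Ctrl replicates 1, 2 or 3 or Dex replicates 1 or 2, ranged from 0 to 4 over the fits without 1 library. DESeq2 called 6 lower of 83 given an adjusted p, against 2.15% of the 5724 genes it gave one. Limma voom called 2 of 90, against 0.978% of all genes tested.

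With Dex, 72 of 90 nuclear members had a negative log2 fold change (median -0.082, all genes 0.0026), and in 18 of them the Dex libraries all lay below Ctrl, against 9.47% of all genes tested. Of the positive nuclear members Sdhaf1 had the smallest p, at 0.60 (edgeR adjusted p = 0.0957). By complex the median was -0.13 for complex I, -0.20 for complex III, -0.090 for complex II, -0.059 for complex IV and -0.046 for complex V. The mitochondrial genes ran the other way. Of 13, 12 had a positive log2 fold change, with a median of 0.21, and in 9 all Dex libraries lay above all Ctrl libraries, against 9.87% of all genes tested. The 9 were mt-Co1, mt-Co2, mt-Co3, mt-Cytb, mt-Nd3, mt-Nd4, mt-Nd4l, mt-Nd5 and mt-Atp6. None passed the adjusted threshold in edgeR, and 6 had an unadjusted p under 0.05, against 13.2% of all genes tested. DESeq2 called 1 higher, against 1.82% of the 5724 genes it gave an adjusted p, and limma voom 0. Members measured in the same libraries can move together, so the counts of nuclear and mitochondrial genes are not of independent results.

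The smallest p of the mitochondrial genes with Dex was that of mt-Co3, a catalytic core subunit of complex IV. Ctrl libraries held 652, 597 and 628 CPM and Dex libraries 739, 710.1 and 749, a log2 difference of 0.23 ± 0.06 (adjusted p = 0.0659). It passed in 4 of 22 alternatives (adjusted p from 0.00931 to 0.494): a mean of at least 50 counts, DESeq2, a replicate block, and the fit without combination replicate 1. Its TGF-β1 libraries, at 665, 642 and 683 CPM, overlapped Ctrl, and so did the combination at 736, 664 and 649. The apoprotein of complex III cytochrome b, mt-Cytb, stood at 420, 417 and 428 CPM in Ctrl and 511, 473 and 521 in Dex (0.25 ± 0.08, adjusted p = 0.180).

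Set against each other within a library, the summed mitochondrial genes came to 0.56 to 0.60 of the summed nuclear members in Ctrl and 0.69 to 0.71 in Dex, so the groups did not overlap. The ratio was 0.60 to 0.72 with TGF-β1, where the lowest library was level with the highest Ctrl library at 0.596, and 0.57 to 0.73 in the combination, which overlapped Ctrl. In the sorted cells it was 0.87 to 1.08 in Cyp11a1 WT, 0.76 to 0.89 in Cyp11a1 cKO, 0.79 to 1.20 in GR WT and 0.84 to 1.02 in GR cKO. The 3 tables came from separate experiments, so no difference between culture and nervous system was tested. No p is given for these sums.

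**Figure D3:**
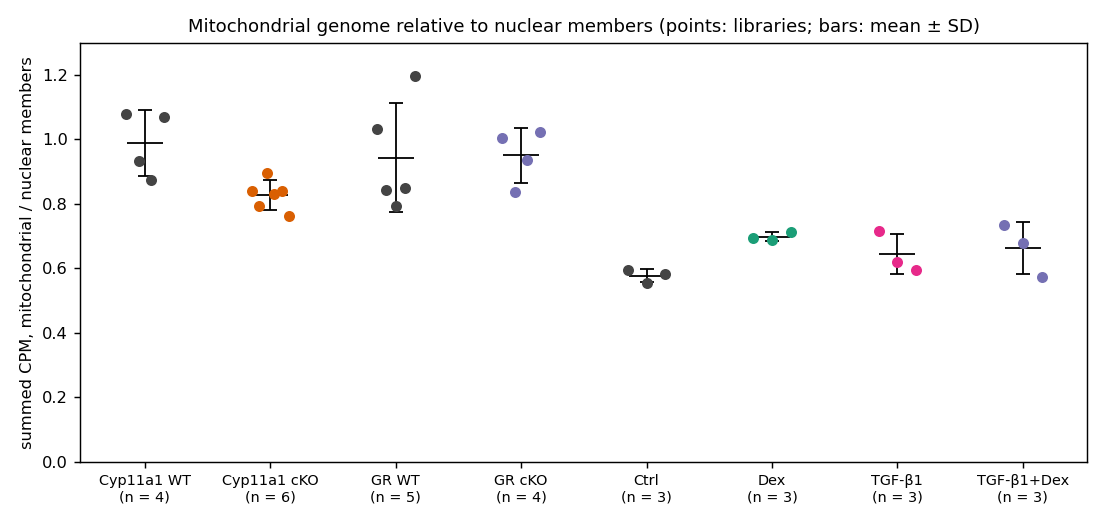
Summed CPM of the 13 mitochondrial genes divided by that of the nuclear members (y axis, from 0) for each library of the 8 groups (x axis); bars are mean ± SD. Dex libraries (0.69 to 0.71) lie above Ctrl (0.56 to 0.60), and the cultured libraries lie below the sorted ones.

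With TGF-β1 and Dex together, 9 of 90 nuclear members were lower than Ctrl and 0 higher, where 3.14% of all genes tested were called lower and 3.12% higher. They came from 4 complexes. Complex I gave Ndufb5, Ndufb6 and Ndufab1, the last being also the acyl carrier protein of mitochondria. Complex III gave Uqcrb, complex IV gave Ndufa4, Cox7a2 and Cox8a, and complex V gave Atp5c1, the gamma subunit of the rotor, and Atp5g3, a source of the c ring. Cox7a2 held 484, 439.9 and 388 CPM in Ctrl and 347, 315 and 331 in the combination, and fell by 0.40 ± 0.09 (adjusted p = 0.0141). Atp5c1 held 322, 302 and 318 CPM against 269, 257 and 269, and fell by 0.24 ± 0.05 (adjusted p = 0.0127). Uqcrb held 201, 194 and 167 CPM against 149.98, 145 and 133, and fell by 0.40 ± 0.09 (adjusted p = 0.0205). In each of the 9 genes the combination libraries all lay below Ctrl. Apart from Ndufa4, log2 differences ran from -0.40 to -0.24.

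The number of calls moved with the libraries: 1 member was left without Ctrl replicate 1, 2 without combination replicate 2, 4 or 5 without Ctrl replicates 2 or 3 or combination replicates 1 or 3, and 2 with scaling by total counts only. DESeq2 called 12 lower, against 2.67% of all genes tested, and limma voom 7, against 2.9%. In all, 75 of 90 nuclear members had a negative log2 fold change, with a median of -0.15 against 0.0011 over all genes tested. In 34 of 90 the combination lay below Ctrl without overlap, against 12.1% of all genes tested, and in 5 it lay above, against 11.5%. Of the positive nuclear members Cox4i2 had the smallest p, at 0.76 (edgeR adjusted p = 0.104). The 13 mitochondrial genes had a median of 0.048, 8 positive and 5 negative, which was -0.0030 with scaling by total counts only and -0.076 to 0.16 over the fits without 1 library, and none passed in edgeR, DESeq2 or limma voom. In edgeR 1 had an unadjusted p under 0.05, against 18.8% of all genes tested.

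Adding Dex to TGF-β1 changed no member in edgeR, where 0.532% of all genes tested were called. At an unadjusted p under 0.05 there were 6 nuclear and 0 mitochondrial members, against 9.85% of all genes tested. DESeq2 and limma voom called none, where they called 0.91% and 0.474% of all genes tested. The nuclear median was -0.021 and the mitochondrial median 0.042 (-0.049 to 0.10 over the fits without 1 library). The smallest adjusted p was 0.159, for Sdhaf1, an assembly factor of complex II, at 0.64 ± 0.17.

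Adding TGF-β1 to Dex raised 2 nuclear members and lowered 1, where 1.46% of all genes tested were called higher and 1.16% lower. The pair that rose was Uqcrfs1, given above, and Ndufaf3, an assembly factor of complex I. Ndufaf3 held 23.5, 23.5 and 28.9 CPM in Dex and 37.4, 39.2 and 44.0 in the combination, a rise of 0.68 ± 0.15 (adjusted p = 0.0282). It stood at 35.0, 42.0 and 36.5 CPM in Ctrl and 41.2, 37.0 and 28.4 with TGF-β1 alone, so the Dex libraries were the low ones in that set apart from 1 TGF-β1 library. Its call was lost in 5 of 12 fits without 1 library (adjusted p up to 0.135). The member that fell was Ndufa4. All 13 mitochondrial genes had a negative log2 fold change against Dex, with a median of -0.15, and 0 passed in edgeR, DESeq2 or limma voom, where the latter tools called 2.31% and 2.29% of all genes tested. In edgeR 1 had an unadjusted p under 0.05, against 13% of all genes tested. Without combination replicate 1, which had the highest mitochondrial sum of its group, that median was -0.30. This comparison and that of Dex with Ctrl share the Dex libraries, and the in vitro comparisons with Ctrl share the Ctrl libraries, so their values are not independent of each other.

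The interaction, whether the effect of Dex differed with TGF-β1 present, was not called for any member in edgeR, where 0% of all genes tested passed. At an unadjusted p under 0.05 there were 8 nuclear and 1 mitochondrial members, against 5.34% of all genes tested. DESeq2 and limma voom called none, where they called 0.0581% and 0% of all genes tested. Ndufa4 had the smallest p of the members, at an interaction of 0.57 ± 0.14 (adjusted p = 0.740). Its mean with Dex was below Ctrl without TGF-β1 (242 ± 26.8 against 311 ± 34.3 CPM) and above it with TGF-β1 (158 ± 11.8 against 136 ± 8.47 CPM), and that difference in direction did not pass the test. The nuclear interaction median was 0.084 and the mitochondrial -0.17.

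Of 8 other lists of mitochondrial and glycolysis genes, 5 had at least 1 gene called in a culture comparison and 3 had 0, to be read against the shares of all genes called lower given above (1.36% with TGF-β1, 0.91% with Dex and 3.14% with both). Against Ctrl, TGF-β1 lowered Etfb, which feeds electrons from fatty acid oxidation to the chain, by 0.59 ± 0.08 (adjusted p = 0.000682), 1 of 41 tested genes of other assembly and electron carrier proteins. It also lowered Slc25a5, an ADP/ATP carrier of the inner membrane, by 0.42 ± 0.05 (adjusted p = 0.000763), 1 of 18 pores, carriers and import genes. Suclg1 of the tricarboxylic acid cycle fell with TGF-β1, Dex and their combination, by 0.49 ± 0.09, 0.37 ± 0.09 and 0.61 ± 0.09 (adjusted p = 0.00606, 0.0472 and 0.000777). The combination lowered 3 of 20 genes of that cycle and pyruvate entry, Idh3a among them at -0.39 ± 0.09, 3 of the 18 pores, carriers and import genes, Hspe1 among them at -0.43 ± 0.09, and 4 of 78 mitochondrial ribosome genes, Mrpl1 and Mrps28 among them at -0.96 ± 0.20 and -0.61 ± 0.14. It lowered Etfb and raised Cox17, a copper chaperone for complex IV, by 0.24 ± 0.06 (adjusted p = 0.0404). The mitochondrial ribosome list had medians of -0.12 with Dex, -0.16 with TGF-β1, where Mrpl17 was its 1 lower gene, and -0.18 with both. Of 19 glycolysis genes, 1 was lower in each of these 3 comparisons, the glucose transporter Slc2a3 (-0.60 ± 0.05 with Dex, -0.40 ± 0.05 with TGF-β1 and -0.77 ± 0.05 with both), and the list's medians were -0.042, 0.020 and 0.012. None was called among the 21 genes of mitochondrial transcription and RNA stability, the 12 regulators of mitochondrial biogenesis or the 13 genes of coenzyme Q synthesis in any in vitro comparison. Between the treated groups, Slc2a3 was lower in the combination than with TGF-β1 (-0.37 ± 0.05), and against Dex the combination had less Etfb (-0.53 ± 0.08) and Slc25a5 (-0.25 ± 0.05) and more of the prohibitin Phb (0.44 ± 0.11). These lists were chosen with earlier results of these data known.

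In the Cyp11a1 experiment, which asked what follows in nervous system Th17 cells when the first enzyme of steroid synthesis is targeted, no member passed in edgeR, where 0.178% of all genes tested were called. All 13 mitochondrial genes were lower in the mean of cKO, with a median log2 fold change of -0.18 where that of all genes was 0.0027, and 7 had an unadjusted p under 0.05, against 8% of all genes tested. DESeq2 called 2 of them, mt-Nd1 and mt-Nd4, lower in cKO, against 0.158% of all genes tested. Limma voom called 0, against 0.0593%. In 6 of 13 every cKO library lay below every WT library, against 0.978% of all genes tested. The 13 genes were measured in the same libraries and can move together, so these are not counts of independent results.

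The smallest p was that of mt-Nd1 (chrM:2751-3707, plus strand), a membrane subunit of complex I. It stood at 1376, 1341, 1372 and 1400.0 CPM in WT, and ran from 966 through a median of 1119 to 1188 CPM over the 6 cKO libraries. The log2 difference was -0.32 ± 0.07 (adjusted p = 0.0974). mt-Nd4, another core subunit of complex I, stood at 409, 371, 354 and 366 CPM in WT and from 281 through 311 to 322 CPM in cKO (-0.30 ± 0.07, adjusted p = 0.149). mt-Cytb stood at 1055, 997, 1080.5 and 951 CPM in WT and from 794 through 856 to 934 CPM in cKO (-0.25 ± 0.07, adjusted p = 0.230). The groups of these genes did not overlap, nor did those of mt-Nd4l, mt-Nd5 and mt-Atp6, while mt-Nd2, mt-Nd3, mt-Nd6, mt-Atp8 and the 3 mt-Co genes overlapped.

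**Figure D4:**
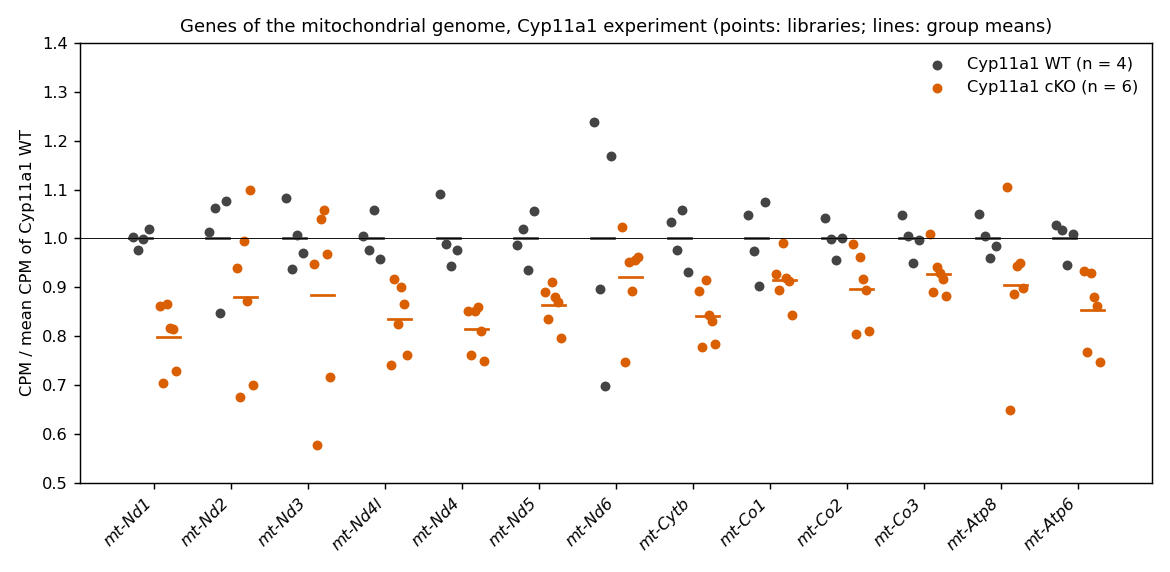
CPM of the 13 mitochondrial genes in each library of the Cyp11a1 experiment, divided by the mean of the 4 WT libraries (y axis, not from 0), by gene (x axis); lines are group means. All 13 cKO means are below 1, and for mt-Nd1, mt-Nd4l, mt-Nd4, mt-Nd5, mt-Cytb and mt-Atp6 no cKO point reaches the lowest WT point.

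Summed over the 13 genes, the mitochondrial transcripts came to 14856 to 16021 CPM in WT and 12218 to 14576 CPM in cKO, without overlap. The nuclear members overlapped, at 14562 to 17002 CPM in WT and 15381 to 17328 CPM in cKO, with a median log2 fold change of 0.045, 60 of 88 positive, 2 at an unadjusted p under 0.05 and none called by DESeq2 or limma voom. All 16 ATP synthase genes were on the positive side (median 0.071). Nuclear members with the smallest p in each direction were Uqcrq of complex III at 0.23 ± 0.09 and Ndufaf4 at -0.49 ± 0.17 (adjusted p = 0.541 and 0.438). Over the fits without 1 library the nuclear median ran from 0.010 to 0.078. Without WT replicates 1 and 4 it was -0.046. These had the largest shares of the predicted genes among WT, and also the lowest nuclear sums (14832 and 14562 CPM). Their removal raises the WT level whatever their share of predicted genes, and the choice was made after seeing the data.

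Marker levels of several cell types differed between these groups. Summed over 21 myeloid and microglial markers, all detected in both groups, the libraries held 589 to 860 CPM in WT and 802 to 1522 CPM in cKO, and the cKO libraries with the highest sums, replicates 2 (1522) and 6 (1480.5), had the lowest mitochondrial sums (12218 and 12398). Without these 2 libraries the mitochondrial median was -0.093, and with the myeloid sum as a covariate -0.10, with mt-Nd1 at -0.25 and -0.19. Taking out the cKO libraries of lowest mitochondrial sum raises the cKO level whatever their myeloid content, and that choice was made after seeing the data. The myeloid sum also differed with genotype, so the covariate fit cannot tell the 2 apart. Of 19 tested myeloid markers 17 had a positive log2 fold change and 3 were called higher. The 6 Th17 markers, all detected, summed to 229 to 318 CPM in WT and 129 to 224 CPM in cKO, without overlap; all 6 had a negative log2 fold change (median -0.71) and 0 were called. The 8 NK and CD8 T cell markers, all detected, summed to 62.0 to 283 CPM in WT and 164 to 442 CPM in cKO. The part of the Th17, NK and CD8 markers in the result was not tested. In bulk libraries fewer cells of a type and less RNA per cell cannot be told apart.

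In the GR experiment, which asked what the receptor does in these cells, no member was called in edgeR, where 0% of all genes tested passed, and none by DESeq2 or limma voom, which called 0.0283% and 0%. At an unadjusted p under 0.05 there were 2 of 89 nuclear and 1 of 13 mitochondrial members, against 8.21% of all genes tested. On the nuclear side 75 of 89 had a negative log2 fold change, with a median of -0.16 (all genes -0.0014), and medians of -0.15, -0.18, -0.17, -0.17 and -0.24 for complexes I to V. On the mitochondrial side 12 of 13 were negative, also with a median of -0.16. mt-Cytb, at 653, 656, 681, 702 and 662 CPM in WT and 624, 650.5, 598 and 617 CPM in cKO, was the 1 member lower without overlap, against 0.859% of all genes tested (-0.11 ± 0.08, adjusted p = 0.655). mt-Nd1 stood at 1267, 1059, 1247, 1291 and 1275 CPM in WT and 1077, 1109, 986 and 1089 CPM in cKO (-0.20 ± 0.09, adjusted p = 0.580). The groups of mt-Nd1 overlapped through WT replicate 2, the lowest WT library. Without cKO replicate 3 the mitochondrial median was -0.094. The nuclear members with the smallest p were Sdhaf1 at -0.60 ± 0.23 and Atp5j of ATP synthase at -0.38 ± 0.15 (adjusted p = 0.580 for both). The most negative was the low-expressed muscle isoform Cox7a1, at 2.25 ± 1.503 CPM in cKO and 5.38 ± 3.53 CPM in WT (-1.27 ± 0.66, adjusted p = 0.580). Of the 14 positive nuclear members, Ndufaf4, Atp5s and Ndufa6 had the smallest p, at 0.47, 0.47 and 0.21 (edgeR adjusted p = 0.612, 0.636 and 0.660). The most positive was the isoform Cox6a2, at 0.62 (edgeR adjusted p = 0.674).

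Markers of myeloid cells differed widely between the GR libraries, and the nuclear sums differed with them; their part in the result was not tested beyond the covariate fit. Myeloid markers, 21 of 21 detected in both groups, summed to 5126 to 22926 CPM in WT and 12116 to 24299 CPM in cKO. The 4 libraries with the lowest myeloid sums, WT replicates 3, 4 and 2 and cKO replicate 2, at 5126, 6764, 10247 and 12116 CPM, had nuclear sums of 13588, 12999.7, 12424 and 12505 CPM. The other 5, at 18240 to 24299 CPM of myeloid markers, had nuclear sums of 9395 to 10542 CPM. The mitochondrial sums showed no such division, at 10445 to 11031 CPM in the first set and 9180 to 11247 CPM in the second. With the myeloid sum as a covariate the nuclear median was 0.061 and the mitochondrial median -0.14. The nuclear median changed sign with that term in the fit and the mitochondrial median did not. Myeloid sums differed with genotype (median 10247 CPM in WT and 20896 CPM in cKO), so this fit cannot tell genotype from myeloid content.

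**Figure D5:**
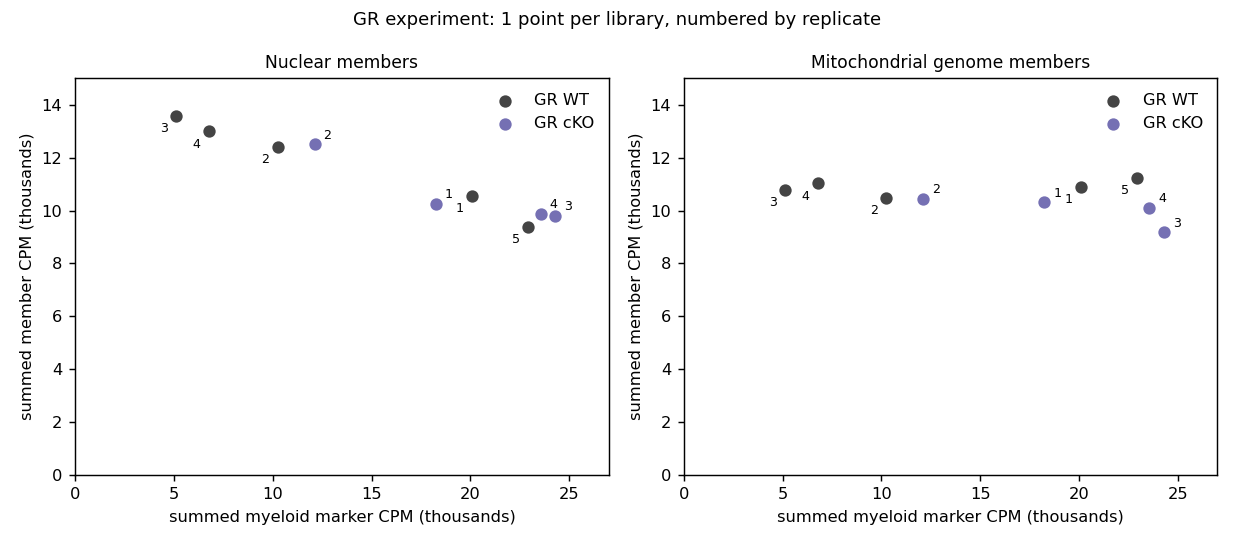
Summed CPM of the nuclear members (left) and of the 13 mitochondrial genes (right) against the summed CPM of 21 myeloid markers (both axes in units of 1000 CPM) for the 9 GR libraries, with replicate numbers beside the points. Nuclear sums are 12424 to 13588 CPM in the 4 libraries of lowest myeloid sum and 9395 to 10542 CPM in the other 5, while mitochondrial sums lie between 9180 and 11247 CPM.

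The members called in more than 1 culture comparison were not called in the sorted cells. There edgeR called 0.178% of all genes tested for Cyp11a1 and 0% for GR. With so few genes called, the lack of a call does not show that a difference was absent. Ndufa4 stood at 243 ± 27.4 CPM (SD, n = 4) in Cyp11a1 WT and 239.9 ± 20.8 (n = 6) in Cyp11a1 cKO, a difference of -0.02 ± 0.09, and at 180.1 ± 31.2 (n = 5) in GR WT and 150.2 ± 40.7 (n = 4) in GR cKO, a difference of -0.26 ± 0.19 (edgeR adjusted p = 0.978 and 0.646). Uqcrfs1 differed by -0.01 ± 0.09 and -0.19 ± 0.17, and Ndufb5 by 0.06 ± 0.08 and -0.18 ± 0.16. In the other lists 0 genes were called in either genotype comparison, to be read against the same shares of all genes. Glycolysis had a median of 0.16 in Cyp11a1 (17 of 19 positive) and -0.39 in GR (1 of 19 positive), and the mitochondrial ribosome 0.057 and -0.22. In GR the glycolysis sums were 6119 to 8307 CPM in the 4 libraries of lowest myeloid sum and 3959 to 4801 CPM in the other 5. The mitochondrial ribosome sums were 2791 to 3495 CPM and 2322 to 2538 CPM. The part of myeloid content in these 2 GR medians was not tested.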

How the data were processed

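RNA of about 2000 sorted cells per library was sequenced by a modified SMART-Seq2 method, which keeps no strand, per the labels' protocols. The authors deposited 3 gene-level count tables made with RSEM 1.3.3 on mm10, per the submitters' processing notes; all deposited values were whole numbers. The tables were normalised separately, and no test crossed them. All genes of a table were fitted with edgeR 4.0.16 in R 4.3.3 (filterByExpr, TMM, robust quasi-likelihood F test, Benjamini-Hochberg threshold 0.05), with all 4 groups in 1 in vitro fit. The edgeR fit was also run on simulated counts, for the first comparison of each table only. Those counts carried no pairing and no differences in myeloid content, and no result here rests on them. DESeq2 1.42.0, limma 3.58.1 voom with sample weights, other scalings and filters, a replicate block, a myeloid covariate and fits without each library were alternatives. The members and lists were chosen with earlier results of these data known. Named members were drawn from up to 8 per direction of smallest p past the threshold, otherwise 3. Every mitochondrial gene, isoform sets, targeted genes and up to 2 per direction of each list could also be named. Not all of these are printed for every comparison. Gene positions and lengths came from GENCODE (GRCm38), promoters from RefSeq (GRCm38.p6). Precision rests on 3 to 6 libraries per group.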

Additional observations from a re-analysis of the deposited data

Results flagged for a closer look

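Of 80 group values with 4 to 6 libraries, 3 had a library far from the others, and chance alone flags about 1 in 20 groups. Uqcrq stood at 294 CPM in Cyp11a1 cKO replicate 2, where the median of the other cKO libraries was 352 CPM; this library also had the highest myeloid marker sum of its experiment. In GR WT replicate 2, mt-Nd1 stood at 1059 CPM and mt-Nd3 at 157 CPM, where the medians of the other WT libraries were 1271 and 229 CPM. The cause of these values was not tested.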

How the results depend on the processing

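Of 712 alternative values of the 32 list results 673 stayed within their limits and 39 moved. The 34 single-gene results are each 1 gene in 1 comparison, so a gene can appear more than once. Of their 769 alternative values 650 stayed on the same side of the threshold, 113 lost their call and 6 gained one. Of the 391 values for the 17 single-gene results called as reported, 278 were still called. No single gene changed sign, while 5 list medians changed sign in at least 1 alternative. With total counts only, 0 nuclear members were called for Dex, 2 for the combination against Ctrl and 1 against Dex, and the GR mitochondrial median was -0.24. With a mean of at least 50 counts, 1 mitochondrial gene was called for Dex and 5 nuclear members for the combination against Dex. DESeq2 called 2 mitochondrial genes for Cyp11a1, 6 nuclear and 1 mitochondrial for Dex, and 5 nuclear for the combination against Dex. With only the groups compared in the fit, 1 nuclear member was called for Dex and 5 for the combination against Ctrl. The nuclear median was 0.061 for GR with the myeloid covariate, and -0.046 for Cyp11a1 without WT replicates 1 and 4. That last alternative was chosen after seeing the data and took out the WT libraries of lowest nuclear sum. The cause of these shifts was not tested.

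Without 1 library each, the GR mitochondrial median ran from -0.19 to -0.094 and the Dex nuclear median from -0.13 to -0.066. Calls ran from 0 to 4 nuclear and 0 to 1 mitochondrial for Dex, 1 to 4 nuclear for TGF-β1, and 1 to 10 nuclear and 0 to 1 mitochondrial for the combination against Ctrl. Against Dex the combination's nuclear median ran from -0.081 to -0.023 and its mitochondrial median from -0.30 to -0.052.

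Deviations of same-numbered libraries correlated at -0.14 to -0.042 for Cyp11a1, -0.24 to 0.12 for GR and -0.019 to 0.073 in vitro. These values are low, and the reported fits took no pairing from the numbers. In vitro 17 of 18 such correlations were positive, against 11 of 36 between libraries of other numbers. All 12 in vitro libraries correlated best with their own number on average, a hint of pairing from the data and not the design. With a replicate block, 2 nuclear members and 1 mitochondrial gene were called for Dex, 4 nuclear members for TGF-β1, 10 for the combination against Ctrl and 3 against Dex, and 0 in the sorted cells.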

Other observations

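AA467197 (Nmes1 in RefSeq's synonyms, chr2:122636986-122641191, plus strand, GRCm38) lies outside the naming rule and was singled out after its values were seen; it encodes a mitochondrial protein related to Ndufa4. It stood at 45.5, 46.3 and 43.3 CPM in Ctrl, 37.6, 35.0 and 40.0 CPM in Dex, 219 (replicate 1), 186 and 208 CPM in TGF-β1 and 160.2, 182 and 141 CPM in the combination. All 6 libraries with TGF-β1 lay above all 6 without it, where those of Ndufa4 lay below. AA467197 rose by 2.18 ± 0.10 on the log2 scale with TGF-β1 and by 1.83 ± 0.10 in the combination against Ctrl (edgeR adjusted p = 1.36e-07 and 4.62e-07), and by 2.10 ± 0.11 in the combination against Dex (adjusted p = 3.01e-07). In the sorted cells it was not called, at 174 ± 35.8 CPM in Cyp11a1 cKO against 127 ± 33.7 in WT and 61.6 ± 16.1 CPM in GR cKO against 96.7 ± 41.3 in WT (adjusted p = 0.541 and 0.580).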
